A study of Mus musculus with 21 samples.

Results

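The variable (V) segments of the immunoglobulin heavy chain (Ighv), kappa light chain (Igkv) and lambda light chain (Iglv) loci were followed in the RNA of mouse germinal centre B cells. The rule took every segment whose name begins with one of those 3 locus names and a number, with at least 10 reads in 4 or more of 16 libraries. It kept 211 of the 348 V segments listed among 47729 gene identifiers: 107 of 185 Ighv, 101 of 160 Igkv and all 3 Iglv segments. Because the rule used read counts, the presence and abundance of the segments are a description. Each segment is given as its share of all reads of its locus in a library, so that the mix of segments can be compared whatever the amount of antibody RNA.

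A B cell builds its heavy chain from a V, a D and a J segment and its light chain from a V and a J segment, so the V segment found in its RNA marks the receptor it carries. In mice of the C57BL/6 background, the hapten NP is known to draw B cells that join the heavy chain segment V186.2, named Ighv1-72 in current annotation, to a lambda light chain built on Iglv1, whereas most mouse B cells use kappa. Germinal centre cells mutate their V segments while dividing in the dark zone (DZ) and are selected by antigen in the light zone (LZ).

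All mice were C57BL/6 with loxP-flanked Ptbp1 alleles and received NP coupled to the carrier protein KLH in alum 7 days before sorting. The 4 groups of 4 libraries were LZ and DZ cells of conditional knockouts (cKO, CD79acre/+Ptbp1fl/fl) and of controls (CD79a+/+Ptbp1fl/fl). PTBP1 is an RNA-binding regulator of splicing and stability. Cre sits in 1 Cd79a allele of the cKO mice alone, is active in the whole B lineage, and its presence and the loss of PTBP1 cannot be told apart. The libraries came from 8 pools of 3 to 5 mice, single in genotype and sex. Each pool was sorted into 1 LZ and 1 DZ library, and replicates 1 and 2 were males and 3 and 4 females, sorted on days of the same number. Ages of the mice are not stated. Neither binding to NP nor unimmunised cells were measured in these libraries, and KLH raises antibodies of its own, so the segments are those of the whole anti-NP-KLH germinal centre pool. A further 5 libraries of PTBP1 crosslinking came from spleen B cells cultured with lipopolysaccharide for 48 h.

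Reads assigned to genes numbered 26823882 to 34240096 per library. In raw CPM (reads scaled to a common library total), Ptbp1 was 83.1 to 120 in LZ cKO and 361 to 411 in LZ control libraries. It was 94.2 to 120 raw CPM in DZ cKO and 427 to 479 in DZ control libraries. These values match the labels in 16 of 16 libraries. The zones also matched their labels, since 5 of 7 light zone markers were higher and 6 of 7 dark zone markers lower in LZ than in DZ cells of both genotypes (edgeR, adjusted p under 0.05).

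The members were unevenly filled. At least 10 reads were found in all 16 libraries for 151 of the 211, and 17 are annotated as pseudogene segments. Of the 137 segments outside the rule, 59 had no read, and together the 137 held at most 0.543% of the V reads of a library. Just inside the rule, Ighv8-11 and Ighv2-4 had 10 reads and Ighv1-41 had 11 in the last library that the rule needed, and just outside it Igkv20-101-2 had 9, Igkv7-33 had 8 and Igkv11-114 had 8. Igkv7-33 nevertheless reached 469 reads in 1 library. Reads that match several near-identical segments, and reads altered by somatic mutation, may be missing or misplaced, and the extent was not tested.

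Ighv1-72 (chr12:115757984-115758277, GRCm38), the V186.2 segment, was the leading heavy chain segment in all 16 libraries and took a larger share of the heavy chain reads in cKO than in control cells. It made up 19.9%, 22.4%, 33.3% and 26.9% of Ighv reads in LZ cKO libraries 1 to 4, against 13.0%, 11.8%, 18.5% and 16.9% in LZ control libraries. The DZ shares were 20.6%, 28.5%, 29.4% and 34.0% in cKO and 12.8%, 12.7%, 19.2% and 17.7% in control libraries. Every cKO library was above every control library, in both zones. Counting error was small beside this spread, as the 95% Wilson intervals of the share were 0.25 to 0.675 percentage points to either side.

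Averaged over the LZ and DZ library of each pool, the Ighv1-72 share was 26.9 ± 5.12% in cKO and 15.3 ± 3.25% in control pools (SD, n = 4 pools each). The difference of 11.6 percentage points gave p = 0.0286 in an exact two-sided permutation test, the smallest p that 4 against 4 pools allow, and 0.0381 after Benjamini-Hochberg (BH) adjustment over the 4 share comparisons made. The share was higher in cKO on 4 of 4 sort days. Pairing the genotypes by sort day left the difference as it was but gave p = 0.125, the smallest that an exact sign-flip test of 4 pairs allows. Within the males the pool means were 22.9% in cKO and 12.6% in control mice, and within the females 30.9% and 18.1%. The females lay above the males in both genotypes, but sex and sort day cannot be told apart here.

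No zone difference passed the test for this segment. Ighv1-72 averaged 20.3% in LZ and 21.9% in DZ libraries, and was higher in LZ in 2 of 8 pools (difference -1.55 points, exact two-sided sign-flip permutation p = 0.266, BH-adjusted 0.266). One pool decided that p, since without cKO pool 3 the difference was -2.32 points with an exact sign-flip p of 0.03125.

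**Figure D1:**
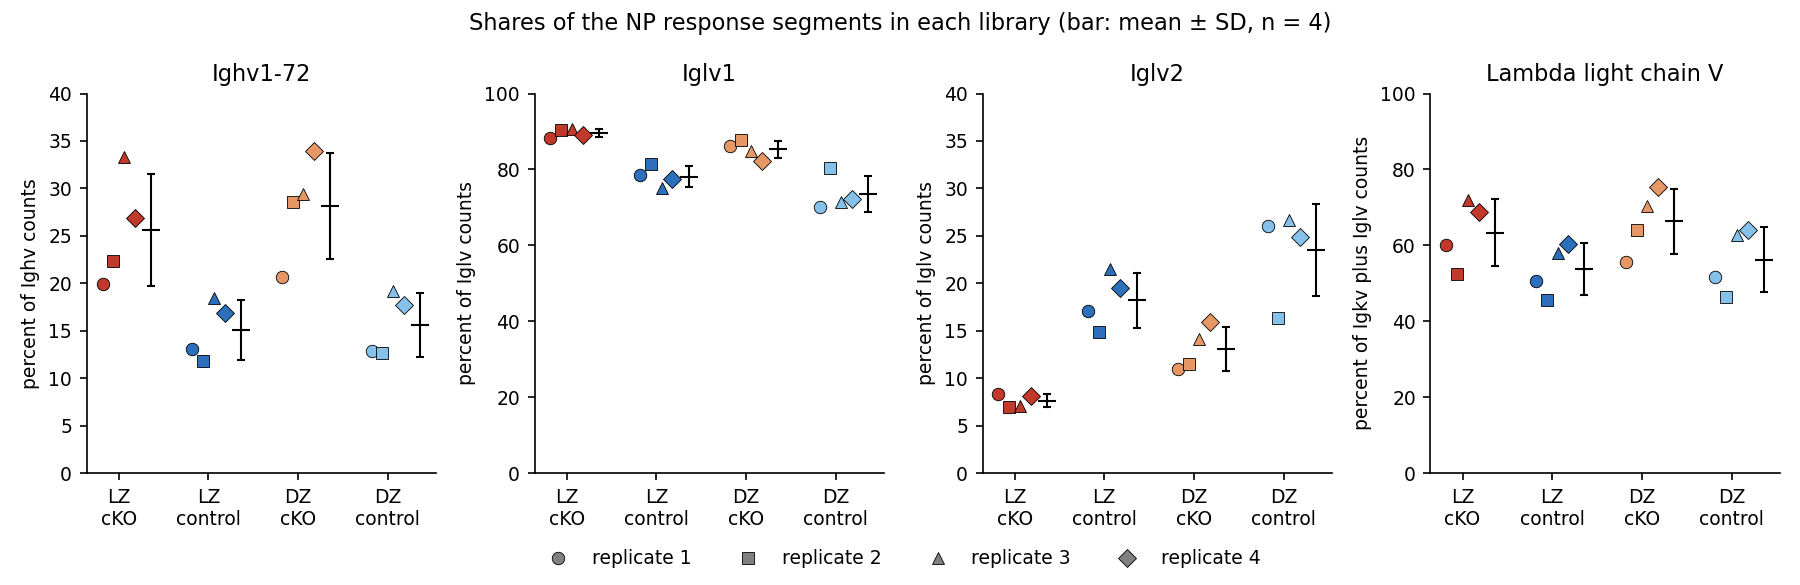
Share of Ighv1-72 in Ighv reads, of Iglv1 and of Iglv2 in Iglv reads, and of lambda in all light chain V reads (percent, vertical axes) in each library of the 4 groups. Symbols mark the replicate number and bars the mean ± SD of 4 libraries. The cKO libraries lie above all control libraries for Ighv1-72 and Iglv1, and the groups overlap for the lambda share.

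Lambda light chain RNA came mainly from Iglv1 (chr16:19085017-19085460), the partner of V186.2 in the textbook response, and more exclusively so in cKO cells. Iglv1 made up 88.4%, 90.5%, 90.6% and 89.2% of Iglv reads in LZ cKO libraries, against 78.5%, 81.5%, 75.1% and 77.4% in LZ control libraries. In the DZ it made up 86.3%, 87.7%, 84.8% and 82.3% in cKO and 70.1%, 80.3%, 71.5% and 72.1% in control libraries. The lowest cKO library, at 82.3%, was above the highest control library, at 81.5%.

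The pool means for Iglv1 were 87.5 ± 1.39% in cKO and 75.8 ± 3.47% in control mice (SD, n = 4 pools each). The difference of 11.7 points had an exact two-sided permutation p of 0.0286 (BH-adjusted 0.0381), again the smallest possible, and stood on 4 of 4 sort days (exact sign-flip p = 0.125 with pairing by day). It was 88.2% in cKO and 77.6% in control males, and 86.7% and 74.0% in females. Iglv1 also differed between the zones. Its share averaged 83.9% in LZ and 79.4% in DZ libraries and was higher in LZ in 8 of 8 pools, by 1.16 to 8.33 points (mean difference 4.47 points, exact two-sided sign-flip permutation p = 0.00781, the smallest possible, BH-adjusted 0.03125).

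The remaining lambda reads fell to Iglv2 (chr16:19260403-19260844) and Iglv3 (chr16:19241208-19241679), so the Iglv2 share mirrors that of Iglv1 and is no separate result. Iglv2 took 6.96% to 15.9% of Iglv reads in cKO and 14.8% to 26.6% in control libraries. Iglv3, a segment far from the other two in sequence, took 0.782% to 3.26% in cKO and 1.83% to 4.49% in control libraries, which overlap. Iglv1 and Iglv2 are close copies, and reads shared by both may be left out of the counts. The constant genes give another view of the same RNA, since Iglv1 normally joins Iglc1 or Iglc3 and Iglv2 joins Iglc2: Iglc1 held 82.4% to 90.8% of the reads of the lambda constant genes in cKO and 66.6% to 77.6% in control libraries.

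Lambda as a whole took a large part of light chain V reads in every library. Its share was 60.1%, 52.5%, 71.8% and 68.9% in LZ cKO and 50.6%, 45.6%, 58.1% and 60.5% in LZ control libraries. In the DZ it was 55.5%, 64.0%, 70.5% and 75.2% in cKO and 51.7%, 46.5%, 62.6% and 64.1% in control libraries. The means were 63.3 ± 8.77% in LZ cKO, 53.7 ± 6.82% in LZ control, 66.3 ± 8.54% in DZ cKO and 56.2 ± 8.53% in DZ control cells (SD, n = 4). The groups overlapped, and cKO exceeded control in the same zone and on the same day in 8 of 8 pairs of libraries. The LZ and DZ pairs of a day come from the same pools, so these are only 4 pairs of pools. The constant genes gave lower values in the same order, with means of 58.8% in LZ cKO, 47.4% in LZ control, 59.8% in DZ cKO and 49.3% in DZ control cells.

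Markers of other cells were summed beside these shares. The summed level of 6 dendritic cell markers was 120 to 155 CPM in LZ cKO and 55.4 to 79.6 CPM in LZ control libraries, and 78.4 to 115 CPM in DZ cKO and 62.6 to 74.8 CPM in DZ control libraries. Most of it was Flt3, a cytokine receptor of progenitor and dendritic cells and the 1 called gene of the list (LZ cKO against LZ control, log2 fold change 1.14, edgeR adjusted p = 8.08e-05). Without Flt3 the other 5 markers summed to 8.78 to 31.4 CPM in LZ cKO and 4.04 to 23.3 CPM in LZ control libraries, and to 3.24 to 29.5 CPM in DZ cKO and 2.44 to 15.7 CPM in DZ control libraries, which overlap. Over all 16 libraries Itgax reached 14.1 CPM, Siglech 12.5, Zbtb46 5.08, Xcr1 3.76 and Clec9a 1.61 CPM. The 5 marginal zone B cell markers summed to 580 to 768 CPM in LZ cKO and 822 to 934 CPM in LZ control libraries, and to 222 to 326 CPM in DZ cKO and 347 to 435 CPM in DZ control libraries, where Cr2, a complement receptor, was called lower (-1.15, edgeR adjusted p = 0.00409). Without Cr2 the other 4 markers overlapped between the genotypes, at 289 to 365 CPM in LZ cKO and 328 to 376 CPM in LZ control libraries, and 168 to 211 CPM in DZ cKO and 163 to 258 CPM in DZ control libraries. Macrophage markers summed to 79.9 to 480 CPM in LZ cKO and 24.9 to 379 CPM in LZ control libraries, and 42.2 to 1234 CPM in DZ cKO and 15.8 to 395 CPM in DZ control libraries. Between the genotypes, 0 genes of the germinal centre, macrophage, T cell, neutrophil and erythroid lists were called, and Cr2 was the 1 called of the naive and memory B cell list. The part of these cells in the shares was not tested.

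Beside Ighv1-72, the heavy chain reads were spread over many segments, and their order varied between pools. Ighv14-3 came next in the mean with 10.8%, 4.87%, 11.2% and 16.9% of Ighv reads in DZ cKO libraries and 5.05% to 11.4% in DZ control libraries. It took 4.05% to 9.12% in LZ cKO and 5.75% to 10.7% in LZ control libraries, so that the groups overlapped in both zones. Ighv1-64 took 2.43% to 4.59% in DZ cKO libraries, below the 5.58% to 8.61% in DZ control libraries, whereas in the LZ its 5.67% to 9.47% in cKO and 6.23% to 9.76% in control libraries overlapped.

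Among the other 7 of the 10 leading Ighv segments, Ighv1-53, Ighv1-81, Ighv9-3, Ighv10-1, Ighv6-3 and Ighv5-17 overlapped between the pools of the genotypes. Ighv10-3 did not, with 2.09 ± 0.654% in cKO and 3.26 ± 0.253% in control pools. Ighv6-3 showed how far pools of 1 genotype could differ, at 0.506% to 2.99% in cKO and 2.20% to 5.90% in control pools. Shares of 1 locus sum to a fixed total, so these shares are not independent of that of Ighv1-72, and no test was made on them. As shares of the Ighv reads without Ighv1-72, Ighv10-3 averaged 2.80% in cKO and 3.84% in control libraries, and Ighv6-3 2.25% and 4.59%. Ighv1-64, Ighv1-81, Ighv10-1 and Ighv5-17 were also lower in the cKO mean on that scale. Ighv14-3, Ighv1-53 and Ighv9-3 were higher, and the libraries of the genotypes overlapped for each of these segments. Per base of annotated span, Ighv1-72 also ranked first in 16 of 16 libraries, at 1.93 to 6.47 times the next segment. The annotated spans of Ighv14-3, Ighv1-64 and Ighv1-53 are longer than that of Ighv1-72, which widens its lead over them on this scale.

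**Figure D2:**
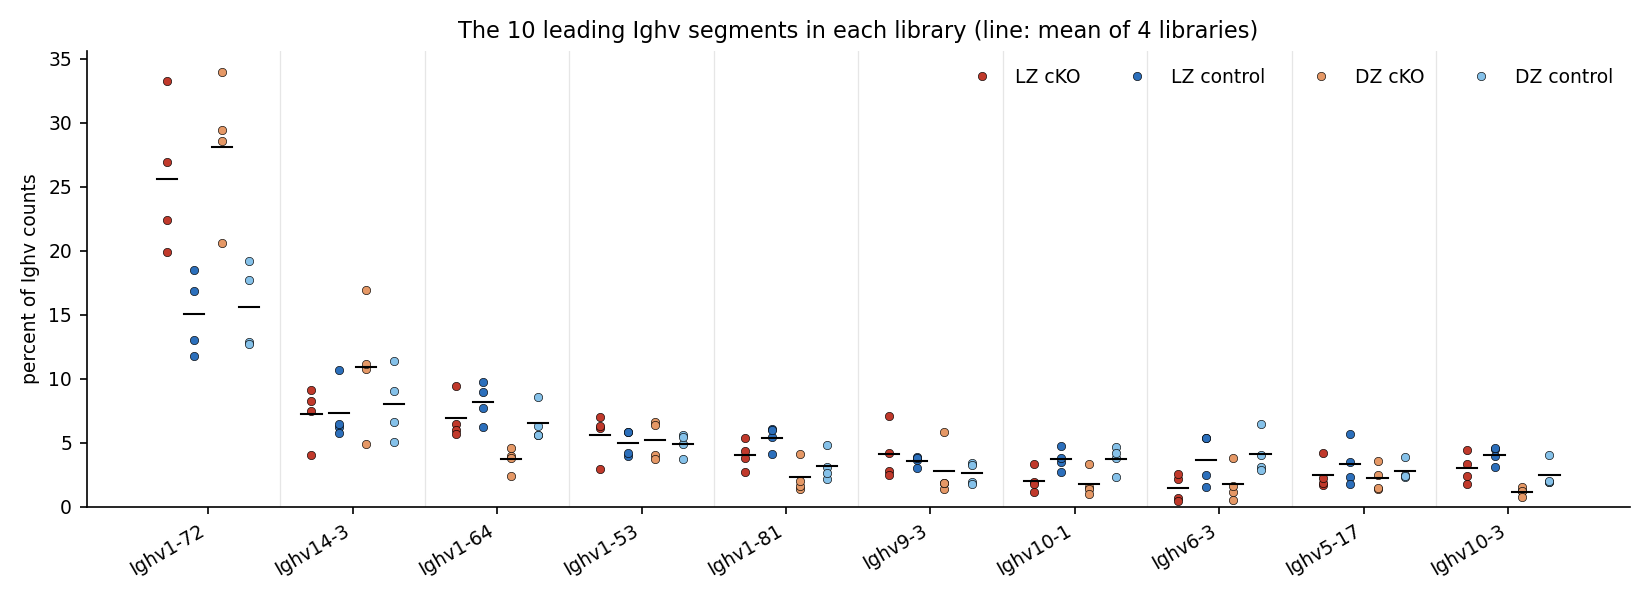
Share of Ighv reads (percent) taken by each of the 10 Ighv segments with the highest mean share, in each library; colours mark the 4 groups and lines their means. Ighv1-72 reaches 19.9% to 34.0% in cKO and 11.8% to 19.2% in control libraries, and no other segment exceeds 16.9%.

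The heavy chain reads were less evenly spread in cKO than in control libraries, which did not overlap while Ighv1-72 was counted. The effective number of Ighv segments, which is the number of equally used segments that would give the same evenness, was 6.48 to 14.4 in cKO and 15.6 to 25.9 in control libraries. With Ighv1-72 taken out, it was 11.2 to 28.9 in cKO and 19.3 to 33.9 in control libraries, which overlap. The library with the fewest effective segments was DZ cKO 4, which held 34.0% Ighv1-72 and 16.9% Ighv14-3. Ighv1, the large J558 family to which Ighv1-72 belongs, held 60.6 ± 3.59% of Ighv reads in LZ cKO, 56.8 ± 3.86% in LZ control, 61.2 ± 3.86% in DZ cKO and 57.2 ± 4.65% in DZ control libraries. Without Ighv1-72, the other Ighv1 segments held 44.0% to 48.0% of what was left in cKO and 44.9% to 55.3% in control libraries, ranges that overlap.

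Kappa light chains showed no such leading segment. The highest share of any Igkv segment in a library was 5.78% to 8.94%, and the effective number of Igkv segments was 33.0 to 39.4 in cKO and 35.6 to 42.4 in control libraries. The place of the first segment passed between Igkv1-110, Igkv1-135, Igkv10-96, Igkv4-58 and Igkv6-17. Igkv1-110 took 3.88% to 8.84% of Igkv reads in LZ cKO and 5.78% to 8.13% in LZ control libraries, and 4.23% to 6.87% in DZ cKO and 4.12% to 7.68% in DZ control libraries. Igkv1-135 took 2.91% to 3.72% in LZ cKO and 4.09% to 8.94% in DZ cKO libraries, without overlap, and 3.64% to 5.39% in LZ control and 4.47% to 6.60% in DZ control libraries, which overlap. For all 10 leading Igkv segments the pools of the genotypes overlapped.

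**Figure D3:**
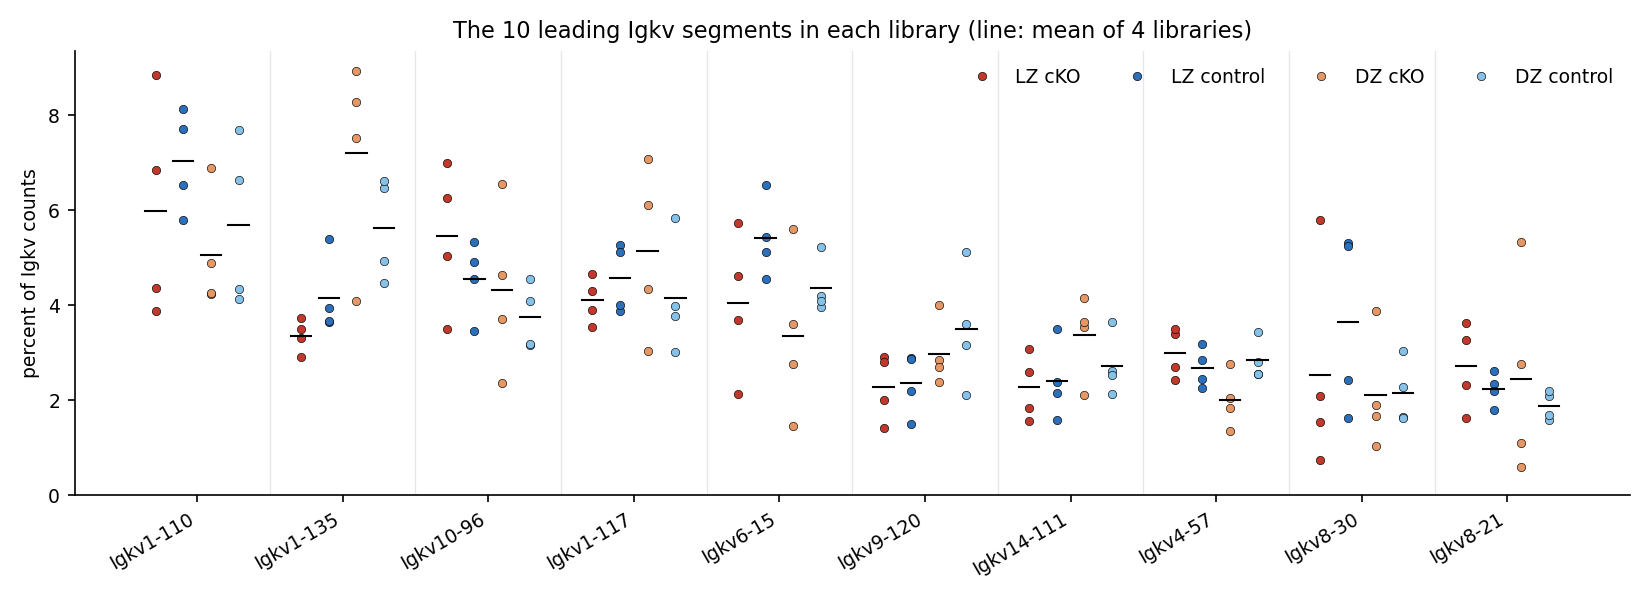
Share of Igkv reads (percent) taken by each of the 10 Igkv segments with the highest mean share, in each library; colours mark the 4 groups and lines their means. No segment exceeds 8.94%, and within each segment the libraries of 1 group spread widely.

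Some segments were high in 1 library alone. Ighv1-76 took 7.09%, Ighv1-42 5.77% and Igkv6-17 7.30% of their loci in DZ control library 3, against at most 3.06%, 0.739% and 1.63% in any other library. Igkv4-58 took 5.99% and Igkv4-91 4.71% of Igkv reads in LZ cKO library 4, against at most 3.26% and 3.37% elsewhere. DZ cKO library 4 held 5.58% Igkv8-34 and 3.66% Igkv4-56, a pair of kappa segments that reached at most 0.636% and 0.0801% elsewhere. Igkv4-56 is annotated as a pseudogene segment.

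The mixes were compared between libraries as the Bray-Curtis distance, which is 0% for identical and 100% for disjoint shares. For Ighv the LZ and DZ library of a pool lay 20.1% to 29.1% apart in cKO and 12.1% to 23.3% apart in control pools. Different cKO pools lay 21.9% to 30.6% apart in the LZ and 22.8% to 35.4% in the DZ, and different control pools 17.4% to 22.7% apart in the LZ and 20.9% to 27.8% in the DZ. The closest library by Ighv mix came from the same pool for 6 of 16 libraries and from the same genotype for 14 of 16. By Igkv mix it came from the same pool for 6 and from the same genotype for 10 of 16. The closest library was of the same zone for 6 of 16 by Ighv mix and for 10 of 16 by Igkv mix. A library has fewer others in its pool than in its genotype or its zone. The counts that chance would give were not computed, so these counts are a description. The Ighv mix includes its leading segment, whose share alone separated the genotypes.

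The amount of V RNA set 3 dark zone libraries apart. V segments took 1.66% and 1.85% of all gene reads in DZ cKO libraries 2 and 3 and 1.30% in DZ control library 3, against 0.318% to 0.57% in the other 13. The same libraries were high in the plasma cell markers Jchain and Sdc1. Jchain, which joins antibody units in secreting cells, was 1975, 7535, 9409 and 2479 CPM in DZ cKO libraries 1 to 4 and 2241, 2568, 6601 and 2177 CPM in DZ control libraries. Sdc1, a plasma cell surface marker, was 16.4, 82.4, 107 and 21.0 CPM in DZ cKO and 7.17, 16.3, 68.7 and 14.7 CPM in DZ control libraries. The summed level of 10 plasma cell markers, none of them at 0, was 2193 to 3344 CPM in LZ cKO and 2264 to 3215 CPM in LZ control libraries, and 3253 to 13824 CPM in DZ cKO and 3794 to 9859 CPM in DZ control libraries. Jchain made up most of that sum in the 3 libraries, and the sum without it is not given. Within the list, Mzb1 was called lower and Tnfrsf13b higher in LZ than in DZ cells of both genotypes (edgeR, adjusted p under 0.05). In such bulk samples, fewer cells of a type and less RNA per cell cannot be told apart. Their part in the differences of V RNA was not tested. Without the 3 pools of these libraries the genotype difference in share was 11.2 points for Ighv1-72 and 9.88 points for Iglv1. With all pools it was 11.6 and 11.7 points. The exact permutation p without the 3 pools was 0.2 each, the smallest for 2 against 3 pools. The choice of pools was made after seeing the data, and the DZ libraries that remained had Jchain at 1975 to 2568 CPM. The part of plasma cells in the share differences was not tested.

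**Figure D4:**
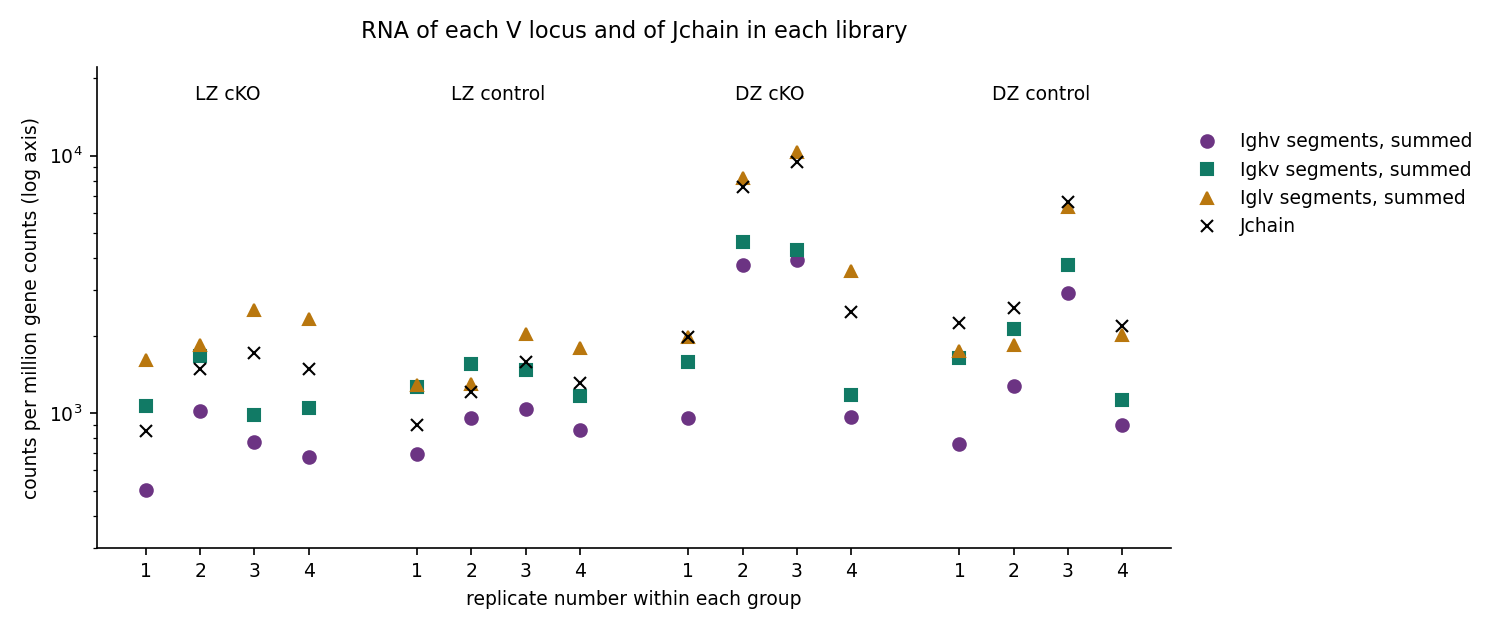
Summed reads of the Ighv, Igkv and Iglv segments and of Jchain in each library, as raw CPM of gene reads on a log axis (Jchain with TMM scaling), for the replicates of the 4 groups. DZ cKO libraries 2 and 3 and DZ control library 3 stand above the other libraries in all 4 measures.

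Levels of the single segments were then compared with edgeR's quasi-likelihood test over all 15789 genes that passed a filter on low counts, 209 of them members, with BH adjustment over all genes and calls at an adjusted p under 0.05. The members varied more than most genes, since their median biological coefficient of variation was 76.1% for Ighv, 63.5% for Igkv and 47.1% for Iglv, against 24.1% for all genes tested. In LZ cKO against LZ control cells, 0 of 209 members were called, where 1.08% of all genes were. At an unadjusted p under 0.05 there were 14 of 209, a cut that passes a fraction of about 0.05 of tests where nothing differs. The share of all genes at that cut is not given, so the 14 are no result about the members. DESeq2 called 3 members, Ighv1-18, Ighv3-1 and Ighv1-12, where it called 2.35% of all genes, and edgeR with sort day as a block called 2, Ighv1-18 and Ighv1-12, where it called 5.5%. Without DZ cKO library 1, edgeR called 1 member, and the share of all genes called in that fit is not given. The median log2 fold change was -0.38 over the members and 0.02 over all genes. CPM did not overlap between the groups for 21 members, or 10.0%, against 8.65% of all genes.

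As levels, both segments of the textbook response missed the threshold. Ighv1-72 had 96.9, 228, 259 and 180 CPM in LZ cKO and 89.2, 111, 196 and 145 CPM in LZ control libraries, which overlap (log2 fold change 0.50 ± 0.60 SE, edgeR adjusted p = 0.808). Iglv1 averaged 1846 ± 404 CPM in LZ cKO and 1244 ± 270 CPM in LZ control libraries (0.57 ± 0.49, edgeR adjusted p = 0.707). Iglv2 averaged 156 ± 31.7 CPM and 300.1 ± 119 CPM in those groups, with no overlap (-0.94 ± 0.56, edgeR adjusted p = 0.518). Levels, unlike shares, also carry the variation of total antibody RNA between libraries.

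In DZ cKO against DZ control cells, 1 of 209 members was called, where 0.627% of all genes were and 0.31% were higher. Igkv1-133 (chr6:67724914-67725661), a kappa segment of the Igkv1 family, had 21.2, 24.3, 12.2 and 18.7 CPM in DZ cKO libraries 1 to 4 and 7.26, 6.70, 5.04 and 3.10 CPM in DZ control libraries. The groups did not overlap, and the log2 fold change was 1.79 ± 0.29 (edgeR adjusted p = 0.00672). In the LZ it had 2.61, 1.86, 2.44 and 3.04 CPM in cKO and 4.15, 5.88, 3.53 and 3.52 CPM in control libraries, without overlap and not called (-0.78 ± 0.28, edgeR adjusted p = 0.227). As a share of Igkv reads it was 1.40%, 0.503%, 0.263% and 1.63% in DZ cKO and 0.459%, 0.325%, 0.128% and 0.271% in DZ control libraries, which overlap. Its call was lost without sort day 1, 2 or 4 (edgeR adjusted p = 0.0643, 0.0509 and 0.096), and without the 3 libraries rich in V RNA (1.82, edgeR adjusted p = 0.0853), where the member called was Igkv4-79 instead and 0.173% of all genes were called. It was lost in each sex alone too, at 0.0122% of all genes called in males (edgeR adjusted p = 0.296) and 0.0258% in females (edgeR adjusted p = 0.212).

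The other members of the DZ comparison did not pass. Their median log2 fold change was 0.46, against 0.01 for all genes, and -0.41 without the 3 libraries rich in V RNA. Ighv1-72 had 188, 1127, 1246 and 320.2 CPM in DZ cKO and 94.4, 157, 592 and 162 CPM in DZ control libraries (1.52 ± 0.61, edgeR adjusted p = 0.326). With sort day as a block it passed (1.52 ± 0.36, edgeR adjusted p = 0.0382), beside Igkv1-133 and Ighv4-1, where 3.27% of all genes were called. DESeq2 called 9 members and 1.97% of all genes. With edgeR, 2 members were called without LZ control library 4 or DZ cKO library 1, 3 or 4, 3 without sort day 3 and 0 without sort day 1 or 2. For those fits the share of all genes called is not given, so these counts do not single out the members. Iglv1 averaged 5355 ± 3703 CPM in DZ cKO and 2205 ± 1688 CPM in DZ control libraries (1.28 ± 0.49, edgeR adjusted p = 0.302). CPM did not overlap for 5 members, or 2.39%, against 6.38% of all genes.

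LZ was then compared with DZ within each genotype, where 31 members were called in cKO and 1 in control mice. As a sum, V segments took 0.318% to 0.452% of gene reads in LZ cKO and 0.452% to 1.85% in DZ cKO libraries, and 0.325% to 0.454% in LZ control and 0.404% to 1.30% in DZ control libraries, and the zones overlap in both genotypes. In cKO mice 31 of 209 members were lower in LZ and 0 higher, where 9.09% of all genes were called, 4.91% higher and 4.18% lower. They were 15 Ighv, 15 Igkv and 1 Iglv segments, and the median log2 fold change was -1.42 over the members and 0.00 over all genes. Igkv1-133 averaged 2.49 ± 0.489 CPM in LZ cKO and 19.1 ± 5.13 CPM in DZ cKO libraries (-2.94 ± 0.30, edgeR adjusted p = 2.3e-05). Ighv14-3 had 40.4, 41.3, 58.4 and 61.2 CPM in LZ cKO and 98.5, 192, 473 and 159 CPM in DZ cKO libraries, without overlap (-2.20 ± 0.46, edgeR adjusted p = 0.00643). Iglv2 had 131, 127, 180 and 188 CPM in LZ cKO and 207, 988, 1562 and 555 CPM in DZ cKO libraries (-2.40 ± 0.59, edgeR adjusted p = 0.0169). Ighv1-72 (-1.91 ± 0.62, edgeR adjusted p = 0.0655) and Iglv1 (-1.54 ± 0.50, edgeR adjusted p = 0.0671) pointed the same way and did not pass.

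The 10 called members with the largest changes averaged 0.139 to 0.898 CPM in LZ cKO libraries and 5.92 to 25.8 CPM in DZ cKO libraries. They were picked by the size of that change in the same data, a choice that favours low LZ values. Their low LZ level is therefore no separate result. At least 10 reads were found in 5 libraries for Igkv2-116, 9 for Ighv2-6 and 13 or more for the others. Igkv8-34, at -5.80, had 0.03 to 0.825 CPM in LZ cKO and 0.244, 30.6, 8.50 and 64.0 CPM in DZ cKO libraries. Igkv2-116, at -5.71 ± 1.66, had 29.2 CPM in DZ cKO library 2 and at most 1.13 CPM in the other 3. Without that library it was at -1.50 (edgeR adjusted p = 0.528), and its call was lost in 22 of 28 alternatives. Ighv9-1, at -5.12 ± 1.54, had 22.7 and 38.8 CPM in DZ cKO libraries 2 and 3 and 0.0351 to 0.122 CPM in the other 2. Ighv9-1 lost its call in 21 of 29 alternatives and turned round in 1. Igkv4-56, at -4.26, rested on DZ cKO library 4: without it the value was -0.29 (edgeR adjusted p = 0.883), and the call held in 6 of 29 alternatives. Ighv14-4, Ighv2-6, Ighv1-61, Ighv1-36, Igkv8-18 and Ighv1-77 changed by -4.99, -4.89, -4.85, -4.13, -3.88 and -3.85, and kept their calls in 20 to 26 of 29 alternatives. CPM did not overlap for 13 of the 209 members, or 6.22%, against 14.3% of all genes.

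Fewer members were called without the libraries rich in V RNA. Leaving them out also leaves fewer DZ replicates, and these effects cannot be told apart. The share of all genes called fell as well, from 9.09% with all libraries to 4.0%. Without DZ cKO libraries 2 and 3 and DZ control library 3, 9 members were called, 8 of them among the 31. The median log2 fold change of the members was then -0.17. Among the 8 were Igkv1-133 (-3.00 ± 0.34, edgeR adjusted p = 0.000362), Ighv14-3 (-1.36 ± 0.30, edgeR adjusted p = 0.0236) and Igkv8-34. Ighv9-1 was then higher in LZ (2.40). The count was 17 without LZ cKO library 1, 2 or 4, 16 without DZ cKO library 3 and 50 without DZ cKO library 1. It was 17, 5 and 8 without sort day 1, 2 or 3. These counts stand without the share of all genes called in the same fits, so their moves cannot be read as particular to the members. The share of all genes called was 4.52% without the filter, where 18 members were called, 8.9% with DESeq2 (62 members), 17.3% with the day block (42), 17.8% with the pool block (44), 2.75% in males (8) and 2.35% in females (4).

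In control mice 1 of 209 members was called, where 7.49% of all genes were and 3.33% were lower. Ighv8-6, a sparse heavy chain segment, had 0.307, 0.199, 0.336 and 0.228 CPM in LZ control and 1.25, 0.706, 0.692 and 0.589 CPM in DZ control libraries, without overlap (-1.58 ± 0.40, edgeR adjusted p = 0.0232). In cKO mice it had 0.398 to 0.693 CPM in LZ and 1.47 to 2.11 CPM in DZ libraries and was also called (-1.61 ± 0.39, edgeR adjusted p = 0.0168). Its call in control mice was lost without the 3 libraries rich in V RNA (-1.64, edgeR adjusted p = 0.0799), without LZ control library 2 or 4 or DZ control library 1, without any 1 sort day (edgeR adjusted p = 0.0858 to 0.144), without the filter, in either sex, and with the pool as a block, which called 3 members and 13.8% of all genes. Sort day as a block called 4 members and 13.7% of all genes, DESeq2 2 members and 7.11%. Without the filter, in males, in females and without the 3 libraries 0 members were called, beside 3.85%, 1.75%, 1.66% and 5.13% of all genes. In all, its call was lost in 12 of 29 alternatives. The median log2 fold change was -0.73 over the members and -0.25 without DZ control library 3. CPM did not overlap for 11 members, or 5.26%, against 14.3% of all genes.

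**Figure D5:**
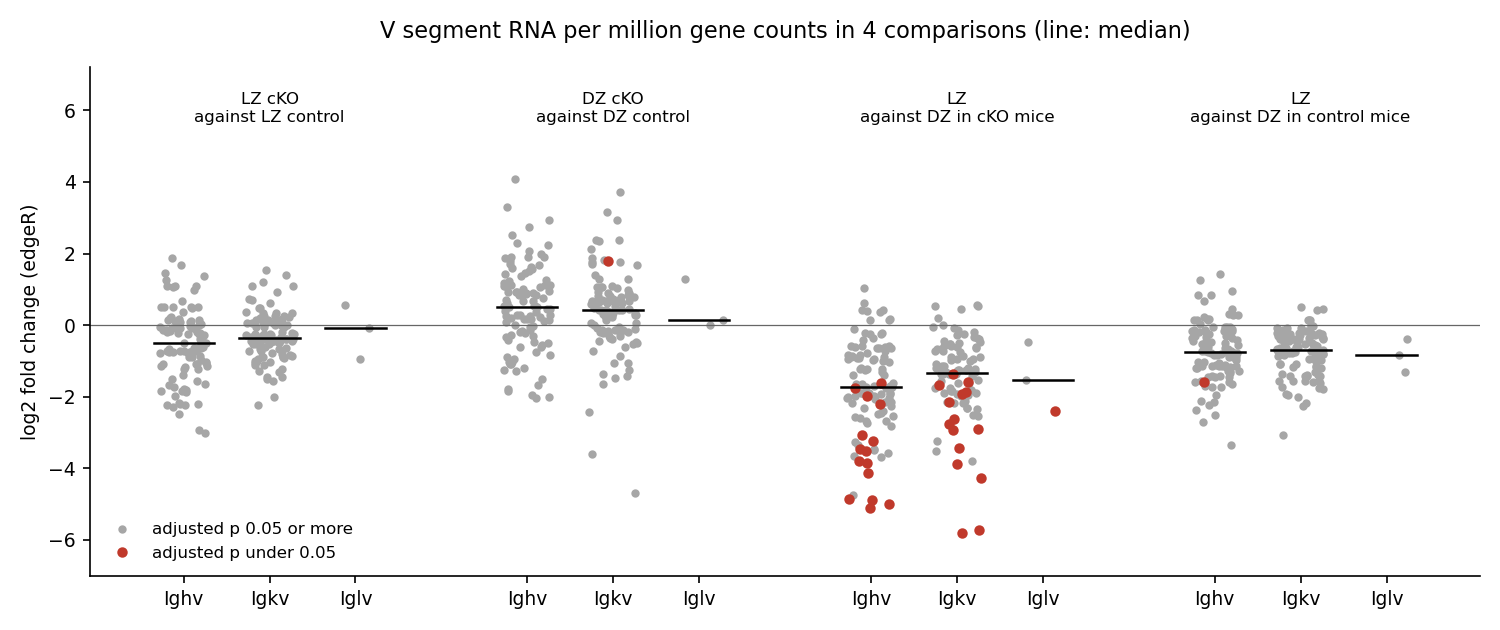
Log2 fold change (edgeR, CPM with TMM scaling) of each Ighv, Igkv and Iglv member in 4 comparisons; red points passed an adjusted p of 0.05 and lines mark medians. The 31 called members of LZ against DZ in cKO mice all lie below 0, and 0, 1 and 1 members are called in the other comparisons, in the order LZ genotype, DZ genotype and zones in control mice.

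The zone difference was not shown to depend on genotype. The interaction of zone and genotype called 0 of 209 members with edgeR, where 0.0% of all genes were called. At an unadjusted p under 0.05 there were 20 of 209 members, and the share of all genes at that cut is not given. DESeq2 called 1 member, beside 0.0241% of all genes. That 1 was Igkv1-133, whose interaction was -2.57 ± 0.40 (edgeR adjusted p = 0.138, DESeq2 adjusted p = 1.91e-05).

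Of 32 further genes of the antibody and B cell receptor machinery, 29 were tested. In LZ cKO against LZ control cells, Iglj1, the J segment that Iglv1 joins, was higher (8.34 to 11.3 CPM in LZ cKO and 3.97 to 5.59 CPM in LZ control libraries, log2 fold change 1.03 ± 0.20, edgeR adjusted p = 0.0204) and Cd79a, the site of Cre, was lower. In the DZ only Cd79a passed, and was lower. Between zones, Ighm, the IgM constant gene, and Jchain were lower and Cd79a was higher in LZ than in DZ cells of cKO mice, and Iglj1 was lower in LZ than in DZ cells of control mice (edgeR adjusted p = 0.00728). The mix of the heavy chain constant genes was described without a test. Ighg1, the IgG1 gene, held 35.2% to 57.8% of heavy chain constant reads in cKO and 15.9% to 37.9% in control libraries, which overlap. Ighm held 13.1% to 45.4% in cKO and 47.5% to 77.4% in control libraries, without overlap.

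PTBP1 crosslinking gave almost no sites in V segments. None of the 6211 to 45505 deposited sites of the 5 replicate lists lay inside a listed V segment, and the list called by the authors on summed replicates placed 3 of its 244659 sites, with 1 cDNA each, in a V segment, Ighv8-8. The Ighv span held 21 sites of the summed list, the Igkv span 74 and the Iglv span, which includes the lambda constant genes, 472. The cultured B cells were not an NP response, and sites that match several segments may have been left out. The segments are also short, with median annotated spans of 294 bases for Ighv, 529 for Igkv and 444 for Iglv members. How many sites such lengths would hold without any preference was not computed.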

How the data were processed

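The 16 libraries were made from poly(A) RNA of sorted cells by SMART-Seq v4, per the labels' protocols. The deposited values are raw counts per Ensembl gene identifier, which the authors made with Trim Galore 0.4.2, HISAT2 and HTSeq on GRCm38, per the submitters' processing notes. For the annotation release, the strand setting and the HISAT2 and HTSeq versions: not given in the sources used here. Left out were the 5 summary lines of each file, which name no gene and held 41.4% to 49.8% of all entries. Symbols came from a table that matched 47224 of 47729 identifiers, and coordinates from RefSeq on GRCm38.p6, which matched 211 of 211 members. The deposited score of a crosslink site is a signed cDNA count per the file headers, and its list is the authors' own; lists were read only for sites inside segments.

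Shares are percentages of all reads of a locus. Pools of mice are the replicates between genotypes and pairs of libraries of a pool between zones; exact permutation tests used SciPy 1.17.1. Levels were fitted in edgeR 4.0.16 (R 4.3.3) with all 16 libraries, TMM scaling, filterByExpr with a minimum count of 10 and group means; CPM are TMM-scaled unless said otherwise. DESeq2 1.42.0, other scaling, no filter, blocks by sort day or pool, single sexes and leaving out libraries were alternatives. Sort day and pool are shared per the labels, which pairs them by number; deviations from group means correlated at 0.142 to 0.39 within a pool and at 0.0944 to 0.325 between other groups of a day. Intervals cover counting error only. The pools are separate mice.

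Members and gene lists were chosen with earlier results of these data known. Segments named are Ighv1-72, the Iglv segments, the 10 Ighv and 10 Igkv segments of highest mean share, up to 10 called per comparison by size, 5 high in a single library and those at the edge of the rule; Ighv1-18, Ighv3-1, Ighv1-12, Ighv4-1, Igkv4-79 and Ighv8-8 were named after their values were seen. Marker lists for germinal centre, naive and memory B cells, T cells, macrophages, neutrophils and erythroid cells were also summed. The fit was tested on simulated data.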

Additional observations from a re-analysis of the deposited data

Results flagged for a closer look

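Dixon's gap ratio was examined in 176 groups of 4 libraries (44 values in each of the 4 groups). In 16 of them 1 library lay far from the other 3, above the 95% critical value. Chance gives about 1 in 20 only for values picked without sight of the data. The segments examined included 5 chosen as high in a single library and others chosen for their calls. The 16 therefore cannot be set against that rate. All are values of single libraries with no explanation tested. In LZ control cells, library 4 stood high for Ighv14-3 (10.7% of Ighv reads, others 5.75% to 6.45%) and Igkv1-135 (5.39% of Igkv reads) and low for Igkv2-116 (0.00279%). In DZ cKO cells, library 1 was high for Ighv9-3 (5.87%) and library 2 for Igkv2-116 (0.605%), and library 4 was high for Igkv8-34 (5.58%) and Igkv4-56 (3.66%) and low for Ighv1-76 (0.398%). In DZ control cells, library 3 stood high in V reads as a whole (1.30% of gene reads, others 0.404% to 0.523%) and for Ighv1-76 (7.09%), Ighv1-42 (5.77%) and Igkv6-17 (7.30%). DZ control library 1 was high for Ighv10-3 (4.07%) and Ighv1-36 (0.0979%), and library 2 for Ighv5-17 (3.88%) and Ighv9-1 (0.779%). No group of LZ cKO cells held such a library.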

How the results depend on the processing

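Counts of called V segments moved with the tool more than with the scaling: RLE size factors and leaving immunoglobulin genes out of library sizes kept all counts within 1.5 times. LZ cKO against LZ control went to 3 with DESeq2 and 2 with the replicate block; DZ cKO against DZ control to 9 with DESeq2, 3 with the block and 0 in either sex alone. LZ against DZ in cKO mice went to 18 without the filter, 62 with DESeq2, 8 in males, 4 in females and 9 without the 3 libraries rich in V RNA, an alternative chosen after seeing the data, and stayed within 1.5 times with blocks by day (42) or pool (44). LZ against DZ in control mice went to 0 without the filter, in either sex and without those 3 libraries, 2 with DESeq2, 4 with the day block and 3 with the pool block; the interaction went to 1 with DESeq2. Leaving out a library or a day gave 0 to 1 (LZ genotype), 0 to 3 (DZ genotype), 5 to 50 (zones in cKO mice), 0 to 1 (zones in control mice) and 0 to 0 (interaction). These ranges stand without the share of all genes called in the same fits. The genotype differences stayed at 11.6 points for Ighv1-72 and 11.7 for Iglv1 under the replicate block (exact permutation p = 0.125) and were 11.2 and 9.88 points without 3 pools (p = 0.2, exact); without any 1 pool they ran from 10.1 to 13.8 and from 10.8 to 13.4 points, where no p under 0.0571 is possible. The zone difference of Iglv1 was 4.47 points unpaired (permutation p = 0.205), 4.74 points without 3 pools (p = 0.0625, exact) and 3.92 to 4.95 without 1 pool; that of Ighv1-72 was -2.32 to -0.762 points. Without 1 library the mean lambda share ran from 60.5% to 66.9% in LZ cKO, 51.4% to 56.4% in LZ control, 63.3% to 69.9% in DZ cKO and 53.6% to 59.4% in DZ control cells. Of 549 alternatives over 19 results of named segments, 381 stayed on their side of the threshold, 166 kept only their direction and 2 reversed: Ighv9-1 without the 3 libraries (2.40) and Igkv4-56 in males (0.76), both LZ against DZ in cKO mice. The cause of these moves was not tested.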
